A study of Mus musculus with 49 samples.

Results

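The Hox genes of paralog groups 3, 4 and 5 are 10 genes of the 13093 in the table, found by their symbols: Hoxa3, Hoxb3 and Hoxd3 of group 3, Hoxa4, Hoxb4, Hoxc4 and Hoxd4 of group 4, and Hoxa5, Hoxb5 and Hoxc5 of group 5. The table holds 22 other Hox genes. All values come from 49 single cells of the metanephric mesenchyme of mouse embryos at 11.5 days post coitum (Theiler stage 19), which carried the transgene Tg(Crym-EGFP)82Gsat on a mixed background and were of both sexes. The dissection followed the EGFP fluorescence around the ureteric bud and took in a few cells outside the Crym domain, and each cell was captured on a Fluidigm C1 chip and sequenced after SMARTer amplification. No embryo or litter is named, so the cells form 1 group of 1 sample and no p-values were computed.

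Hox genes encode homeodomain transcription factors that lie in 4 clusters in the mouse (a to d). Within a cluster the genes are ordered from group 1 at one end to the highest groups at the other, and in the embryo this order matches how far towards the head each gene is active. Groups 3 to 5 are best known from the hindbrain, neck and upper trunk, several of them respond to retinoic acid, and Hox proteins bind DNA together with Pbx and Meis proteins. In the kidney the groups 10 and 11 at the other end are the ones with an established role in the mesenchyme.

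The 10 genes resemble each other most in the homeobox, the stretch that encodes the DNA-binding homeodomain, and that similarity bears on how well reads of one paralog were told from those of another; the read length is not stated in the sources at hand. Over its 180 bases the median identity was 82.5% for the 12 pairs of the same paralog group (75 to 93.9%) and 72.2% for the 8 pairs of the same cluster.

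A gene was counted as found in a cell at 1 RPKM or more (reads per kilobase of gene, scaled to the mapped reads of the cell). From the steps between low values, 1 RPKM was about 4.72 reads of Hoxb4 or 3.46 reads of Hoxa5 in a cell of median depth, which held an estimated 1840000 mapped reads. In 47 cells the estimate lay between 1280000 and 2800000 reads, and in cell 3 and cell 7 it was 63700 and 85100, so that 1 read there gave a gene of the length of Hoxb4 or Hoxa5 several RPKM. Without molecular identifiers these reads are amplified copies, and exact (Clopper-Pearson) 95% binomial intervals below cover counting error only. A median of 5210 genes was found per cell (3610 to 6510). The housekeeping gene Tbp was listed at 0 in 19 of the 49 cells, so a value of 0 is read here as not found, not as absence.

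The genes were found in 8 to 36 of the 49 cells, and no gene was found in every cell. Hoxb3 and Hoxa5 were found most often, Hoxa4 and Hoxc5 least often. Within each group the levels differed widely between paralogs, and every gene stood at 0 in at least 6 cells.

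**Figure D1:**
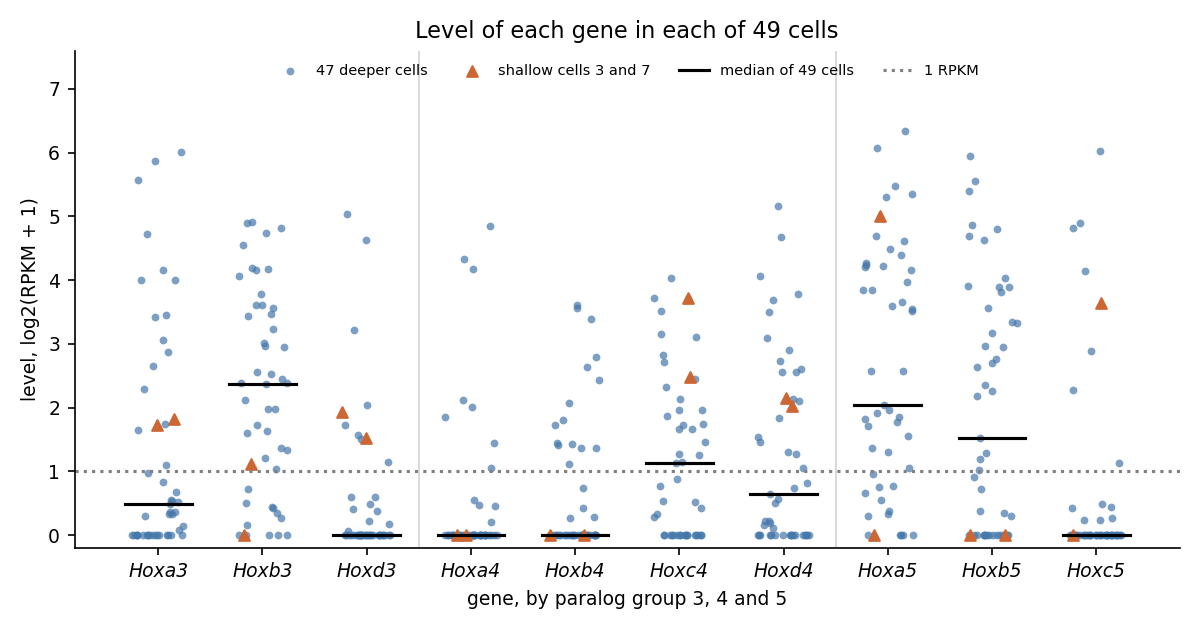
Level of each of the 10 genes, as log2(RPKM + 1) on the vertical axis, with 1 point per cell, black bars at the median of 49 cells, triangles for the shallow cells 3 and 7 and a dotted line at 1 RPKM. The medians of Hoxb3 and Hoxa5 lie highest, and Hoxd3, Hoxa4, Hoxb4 and Hoxc5 have their median at 0 with single cells far above it.

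In group 3, Hoxb3 (gene ID 15410; mm9, chromosome 11, 96184440 to 96209244) ranged from 0 to 29.2 RPKM with a median of 4.16 RPKM. It passed 1 RPKM in 36 cells (73.5%, interval 58.9 to 85.1%), and its level was the most evenly spread of the 10 genes: its 5 highest cells (cells 34, 18, 36, 16 and 33) held 38.4% of its summed level. Hoxa3 (gene ID 15400; chromosome 6, 52119061 to 52163066) ranged from 0 to 63.7 RPKM with a median of 0.395 RPKM, and 18 cells had it (36.7%, interval 23.4 to 51.7%). Cells 35, 6 and 11 stood above the rest at 63.7, 57.7 and 46.5 RPKM. For Hoxd3 (gene ID 15434; chromosome 2, 74550050 to 74586328) the cells numbered 10 (20.4%, interval 10.2 to 34.3%), the median over all cells was 0 and the highest value 31.9 RPKM. Cells 2 and 1, at 31.9 and 23.7 RPKM, held most of it, and the next cell had 8.32 RPKM. Group 3 genes act in the hindbrain and the pharyngeal arches, and Hoxa3 is needed for the thymus and parathyroid.

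In group 4, 25 cells had Hoxc4 (gene ID 15423; chromosome 15, 102849367 to 102867283), a share of 51.0% (interval 36.3 to 65.6%). Its level ran from 0 to 15.4 RPKM around a median of 1.18 RPKM. Its highest cell of usual depth was cell 10, and the 12.2 RPKM of the shallow cell 3 rested on about 2 reads. Hoxd4 (gene ID 15436; chromosome 2, 74560035 to 74567216) passed 1 RPKM in 22 cells (44.9%, interval 30.7 to 59.8%). Its level ran from 0 to 35.0 RPKM around a median of 0.563 RPKM. Cell 17 had 35.0 and cell 29 had 24.6 RPKM. Hoxb4, known for expanding blood stem cells when supplied in excess (gene ID 15412; chromosome 11, 96179581 to 96182952), passed 1 RPKM in 15 cells (30.6%, interval 18.3 to 45.4%). It was low where it was found, at a median of 2.51 RPKM among the 15 and 11.2 RPKM, or 69 reads, in its highest, cell 8. 8 cells had Hoxa4 (gene ID 15401; chromosome 6, 52139686 to 52141702), a share of 16.3% (interval 7.32 to 29.7%). It reached 27.7, 19.1 and 17.0 RPKM in cells 38, 31 and 4 and 3.35 RPKM or less in all other cells.

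In group 5, Hoxa5, which is needed for lung and airway formation (gene ID 15402; chromosome 6, 52151753 to 52154586), passed 1 RPKM in 35 cells (71.4%, interval 56.7 to 83.4%). Its level ran from 0 to 79.9 RPKM around a median of 3.11 RPKM. It had the highest mean of the 10 genes, 12.3 RPKM, and reached 10 RPKM in 22 cells. Cells 29 and 35 were highest at 79.9 and 66.2 RPKM, and the 31.3 RPKM of the shallow cell 7 rested on about 5 reads. Hoxb5 (gene ID 15413; chromosome 11, 96164826 to 96167435) passed 1 RPKM in 28 cells (57.1%, interval 42.2 to 71.2%). Its level ran from 0 to 60.7 RPKM around a median of 1.88 RPKM and was highest in cells 2, 42 and 34. Without the shallow cells 3 and 7, both at 0, its median was 3.52 RPKM. 8 cells also had Hoxc5 (gene ID 15424; chromosome 15, 102844439 to 102847860), at medians of 14.1 RPKM in these cells and 0 over all. Its values there fell from 64.3 RPKM in cell 4, or 262 reads, through 28.7 and 27.3 RPKM in cells 32 and 23, to 1.19 RPKM in cell 35, and the 11.5 RPKM of the shallow cell 3 were 2 reads. Its 5 highest cells held 91.9% of its summed level, the largest such share of the 10 genes.

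Ordered by their median RPKM, which is per length, the genes ran Hoxb3, Hoxa5, Hoxb5, Hoxc4, Hoxd4 and Hoxa3. Hoxc5, Hoxd3, Hoxa4 and Hoxb4 tied at a median of 0 and follow here in the order of their means. Without the shallow cells 3 and 7 Hoxb5, at 3.52 RPKM, stood above Hoxa5, at 3.11 RPKM, and the other genes with a median above 0 kept this order. Neighbours in this order overlapped in every case. Hoxb3 was above Hoxa5 in 20 cells and below it in 28, and Hoxc4 was above Hoxd4 in 21 and below it in 18. Hoxa5 was above Hoxb5 in 31 cells and below it in 16, and Hoxa3 was above Hoxc5 in 29 and below it in 9. The order of the means was another one, led by Hoxa5 at 12.3, Hoxb5 at 8.33, Hoxb3 at 7.08 and Hoxa3 at 6.10 RPKM.

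The spans of some of these genes overlap those of neighbours. The table gives Hoxa3 a span of 44.0 kb, which covers Hoxa4, Hoxa5 and Hoxa6 and the noncoding genes 2700086A05Rik, 5730596B20Rik and Gm15050 and overlaps LOC100503966. Hoxd3 has a span of 36.3 kb, which covers Hoxd4 and Mir10b and overlaps 1700109F18Rik. The libraries keep no strand, so reads in exons that genes share cannot be told apart, and the values of Hoxa3, Hoxa4, Hoxa5, Hoxd3 and Hoxd4 are uncertain to that extent; how such reads were counted is not stated. Hoxb3, Hoxb4, Hoxb5, Hoxc4 and Hoxc5 overlap no other gene of the table. Low values were whole multiples of 1 step, the unit found for each gene, in 10 of 10 cells for Hoxc5, 17 of 18 for Hoxb4 and 68 to 71.4% of cells for Hoxb5, Hoxc4 and Hoxb3. For the genes with overlaps the shares were 41.7% for Hoxd4, 54.5% for Hoxa4, 57.1% for Hoxa3 and 64.5% for Hoxa5, all lower, and 76.9% for Hoxd3. The step of Hoxd3 implied a length of 16816 bases against 2968 for its longest coding transcript, so 1 step need not be 1 read. The steps of Hoxa3 and Hoxd4 implied 5086 and 5118 bases against 2591 and 2560. Whether shared exons gave these fractions was not tested.

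Mir10b lies inside the spans of Hoxd3 and Hoxd4, and Mir10a lies in the b cluster. The mature miRNAs (RefSeq, GRCm38.p6) share their seed, bases 2 to 8, shown in capitals.
miR-10a-5p: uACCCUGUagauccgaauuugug
miR-10b-5p: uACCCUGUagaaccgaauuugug
The amplification chemistry primes on poly(A) tails, which mature miRNAs lack, so a value at the locus stands for longer RNA that covers it. The Mir10b locus was found in 4 cells, with 243 RPKM in cell 29, 34.0 in cell 35, 20.8 in the shallow cell 3 and 4.96 in cell 44. Its span, 74564127 to 74564194, is so short that few reads give a high RPKM. By this span and the estimated depth, the values of cells 3 and 44 come to a fraction of a read, so the count of cells is uncertain. Hoxd4 was found in all 4 of them, where independent detection gives 1.80, and stood at 24.6, 6.51, 3.07 and 11.9 RPKM in that order. Hoxd3 was found in 2 of the 4. The Mir10a locus was found in cells 18 and 49, at 57.2 and 61.6 RPKM. Hoxb3, found in 36 of all 49 cells, was found in both. Hoxb4 stood at 0 in both, and Hoxb5 at 0 in cell 18 and 6.76 RPKM in cell 49.

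Every cell had at least 1 of the 10 genes (49 of 49 cells, 100%, interval 92.7 to 100%), and none had all of them. The number per cell had a median of 4 and ran from 1, in cells 26 and 51, to 8, in cells 19 and 35. Cell 26 had only Hoxa5 and cell 51 only Hoxb5. Cell 19 lacked Hoxa4 and Hoxc5, and cell 35 lacked Hoxd3 and Hoxb4. The sum of the 10 levels had a median of 37.4 RPKM, from 3.58 RPKM in cell 27 to 183 RPKM in cell 35. The number of genes of the set correlated weakly with the number of all genes found in the cell (Spearman's rho 0.297 over 49 cells of 1 sample).

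Any gene of group 3 was found in 40 cells, of group 4 in 38 and of group 5 in 45. Only 4 cells had 3 group 3 genes, and only 1 had 3 group 5 genes (cell 35). By cluster, 44 cells had a gene of the b cluster, 40 of the a cluster, 30 of the c cluster and 25 of the d cluster. All 3 paralog groups were met in 27 cells and all 4 clusters in 14. The 49 cells showed 45 different combinations, 42 of them in a single cell each. The commonest, Hoxb3 with Hoxc4, Hoxd4, Hoxa5 and Hoxb5, was seen in 3 cells (10, 20 and 48).

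Set among all 32 Hox genes analysed, groups 3 to 5 had a lower summed level than groups 6 to 8 and groups 9 to 11. Groups 9 to 11 include the groups known for their part in the kidney. The median summed level per cell was 37.4 RPKM for groups 3 to 5, against 1.54 RPKM for the 4 genes of groups 1 and 2, 56.9 RPKM for the 7 genes of groups 6 to 8 and 251 RPKM for the 10 genes of groups 9 to 11. Hoxa10 was found in 49 cells and Hoxc10 in 47, with medians of 60.5 and 51.7 RPKM, while the most often found gene of groups 3 to 5, Hoxb3, had a median of 4.16 RPKM. The group 11 genes did not stand above Hoxb3: Hoxd11, Hoxa11 and Hoxc11 were found in 27, 20 and 8 cells. Their medians were 2.13, 0.202 and 0 RPKM. The sums cover unequal numbers of genes. The median gene of groups 3 to 5 was found in 20 cells, of groups 6 to 8 in 18 and of groups 9 to 11 in 28, with wide ranges of 8 to 36, 9 to 45 and 8 to 49 cells.

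**Figure D2:**
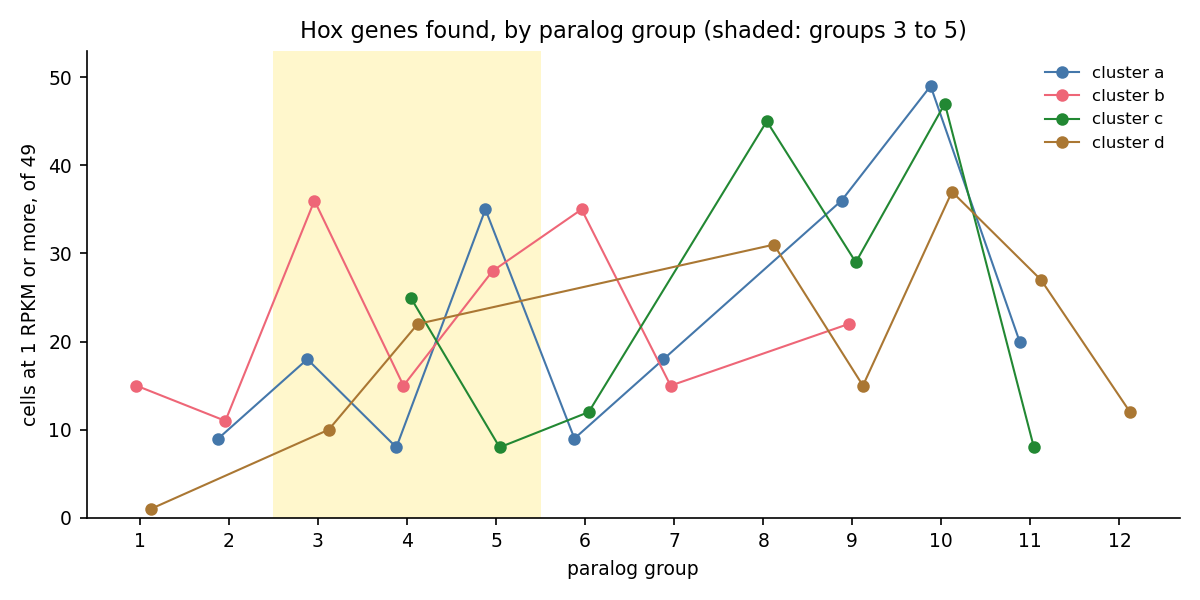
Number of the 49 cells in which each analysed Hox gene was found at 1 RPKM or more (vertical axis) by paralog group (horizontal axis), with 1 line per cluster and groups 3 to 5 shaded. Within the shaded groups the counts run from 8 (Hoxa4 and Hoxc5) to 36 (Hoxb3), and the highest counts of all are those of Hoxa10 and Hoxc10.

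Finding 2 of the genes in the same cell was compared with the number expected from independent detection, which is the number of cells with one gene times the number with the other over 49. Of the 45 pairs, 32 (71.1%) shared more cells than that, where 54.1% of the pairs of a member with any other gene found in 5 to 44 cells did so. By class the counts were 6 of 8 pairs of the same cluster, 8 of 12 pairs of the same paralog group and 18 of 25 other pairs (75%, 66.7% and 72%), so the share was much the same whether or not the genes had a cluster or a group in common. The excess was small for most: the median ratio of observed to expected cells was 1.06. At least 25% more cells than expected, called a high ratio here, were shared by 7 of the 45 pairs, where 15.1% of pairs with other genes did so. At least 20% fewer, called a low ratio, were shared by 7 pairs, where 16.5% did so. Both counts are near the background.

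The levels correlated weakly. An absolute Spearman correlation of 0.3 or more was reached by 3 of the 45 pairs, where 3.84% of pairs with other genes reached it. The cells share 1 sample and differ in depth, and correlations this weak in sparse counts are no finding on their own. The median was 0.06 for pairs of the same cluster, -0.06 for pairs of the same paralog group and 0.09 for the others.

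The highest correlation was that of Hoxc4 and Hoxd4, which belong to the same paralog group on different chromosomes (rho 0.354). They were found together in 16 cells, where independent detection gives 11.2, and the shallow cells 3 and 7 are among the 16; without these cells the numbers were 14 and 9.79, and rho was 0.335. At 10 RPKM no cell had both. Hoxd4 and Hoxc5 (rho 0.326) shared 5 cells against 3.59, and Hoxb3 and Hoxb5 (rho 0.30) shared 22 against 20.6. Without cells 3 and 7 their correlations were 0.323 and 0.257. Hoxb4, which lies between Hoxb3 and Hoxb5, had lower correlations with both. Hoxb3 and Hoxb4 shared 9 cells against 11.0 (rho -0.17), and Hoxb4 and Hoxb5 shared 9 against 8.57 (rho -0.03). By shared cells, Hoxb3 with Hoxb5 (ratio 1.07) and Hoxb4 with Hoxb5 (ratio 1.05) hardly differed.

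The pairs with the largest ratios were Hoxa3 with Hoxd3, in 6 cells against 3.67, and Hoxd3 with Hoxd4, in 7 against 4.49. Both include the shallow cells 3 and 7, and without them the numbers were 4 against 2.72 and 5 against 3.40. Hoxd3 and Hoxd4 also overlap. Without the 3 overlapping pairs (Hoxa3 with Hoxa4, Hoxa3 with Hoxa5, Hoxd3 with Hoxd4), 3 of the 5 remaining pairs of the same cluster shared more cells than independent detection gives, and their median correlation was -0.08. At the low end, Hoxa4 and Hoxb4 met in 1 cell against 2.45, Hoxb5 and Hoxc5 in 2 against 4.57, and Hoxa5 and Hoxc5 in 3 against 5.71. All of these are pairs of the same paralog group, and all rest on a gene found in 8 cells.

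**Figure D3:**
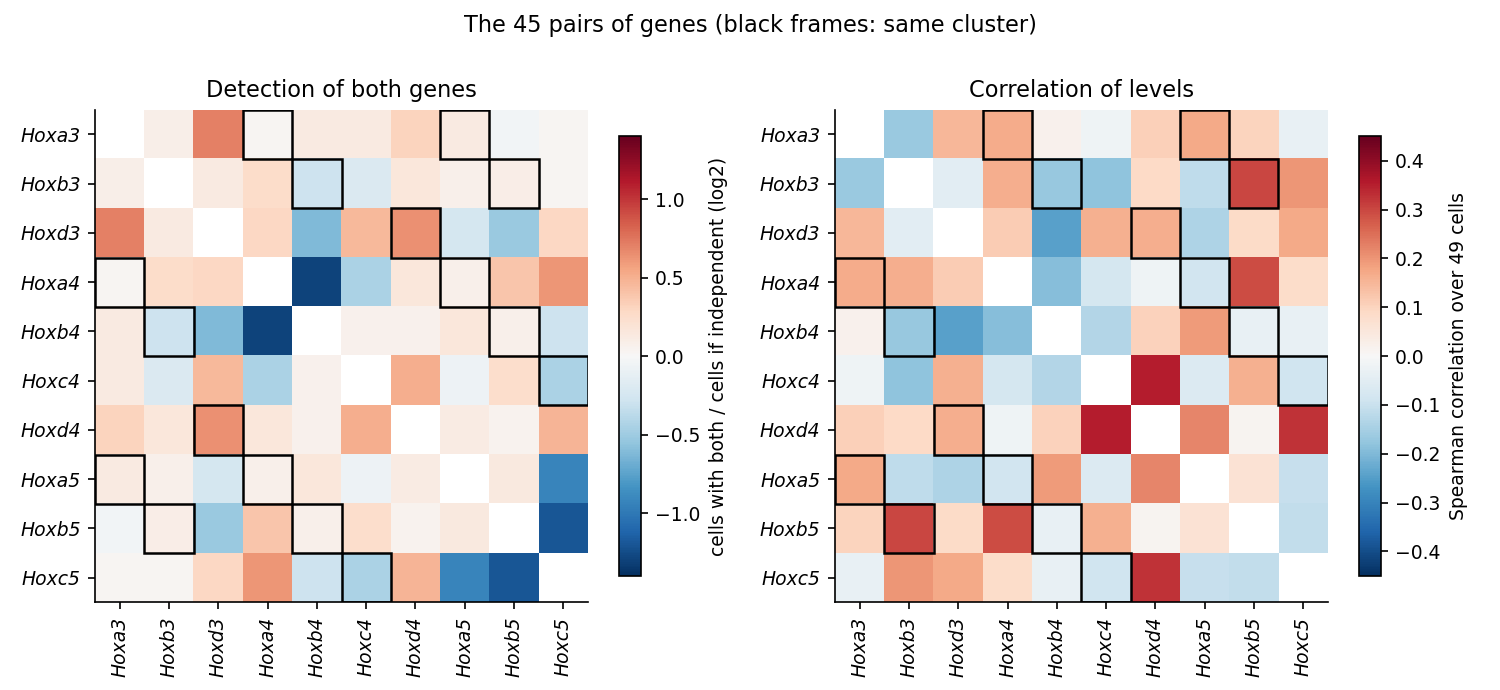
The 45 pairs of genes, with the log2 of cells with both genes over cells expected if detection were independent on the left and the Spearman correlation of levels over 49 cells on the right; black frames mark pairs of the same cluster. Most pairs are pale, framed pairs are not redder than the rest, and the darkest pairs are Hoxa4 with Hoxb4 and Hoxb5 with Hoxc5 (blue, left) and Hoxc4 with Hoxd4 (red, right).

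With the Hox genes outside groups 3 to 5, found in 5 to 44 cells, the members shared more cells than independent detection gives in 29 of 46 pairs of the same cluster and 78 of 134 pairs of different clusters (63.0% and 58.2%). Of pairs of a member with any other gene, 54.1% did so. The median correlations were 0.09 and 0.02. The most alike were Hoxb5 and Hoxb9, in 17 cells against 12.6 (rho 0.420), followed by Hoxb5 and Hoxa6 of the a cluster, in 9 cells against 5.14 (rho 0.394), and Hoxb3 and Hoxb9, in 20 cells against 16.2 (rho 0.382). Of the 18 other Hox genes compared, Hoxb5 had the most partners of the set at a correlation of 0.3 or more: Hoxa6, Hoxa7, Hoxb9 and Hoxc11. Of pairs of a member with any other gene, 3.84% reached 0.3 in either direction. Whether the partners of Hoxb5 exceed that share was not tested.

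The mesenchyme at this stage holds nephron progenitors, which express the transcription factor Six2, and stromal cells, which express the transcription factor Foxd1. Six2 was found in 27 cells and Foxd1 in 24. They split the cells into 18 with Six2 without Foxd1, 15 with Foxd1 without Six2, 9 with both and 7 with neither. The number of Hox genes of the set had a median of 4, 5, 5 and 3 in these classes and overlapped between all of them (1 to 7, 2 to 7, 2 to 8 and 2 to 6).

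**Figure D4:**
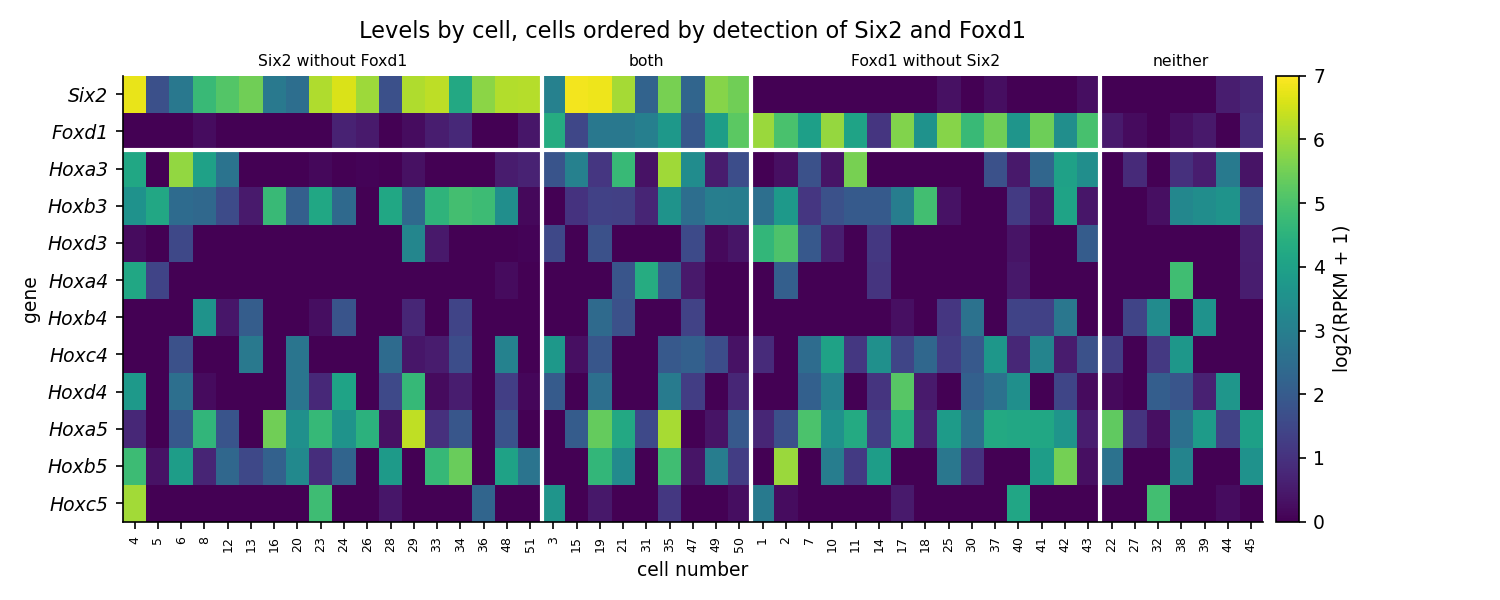
Levels of Six2, Foxd1 and the 10 Hox genes in each of the 49 cells as log2(RPKM + 1), with the cells (horizontal axis, cell number) ordered by detection of Six2 and Foxd1 and white lines between the 4 classes. Hoxd3 is found in 3 of the 4 classes and every other Hox gene in all 4, and no Hox gene is found in every cell of a class.

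With Foxd1, 4 of the 10 genes had a high ratio, as did 17.3% of all genes found in 5 to 44 cells (17.7% of genes found in 8 to 36 cells, the range of the set), and none had a low ratio (background 11%). Hoxd3 was found in 8 of 24 cells with Foxd1 (33.3%, interval 15.6 to 55.3%) and 2 of 25 without (8%, interval 0.984 to 26.0%). Hoxa3 was found in 13 cells with Foxd1 (54.2%, interval 32.8 to 74.4%) and 5 without (20%, interval 6.83 to 40.7%). Hoxc4 was found in 16 cells with Foxd1 (66.7%, interval 44.7 to 84.4%) and 9 without (36%, interval 18.0 to 57.5%). Hoxa4 was found in 5 with Foxd1 and 3 without. The ratios of observed to expected cells were 1.63, 1.47, 1.31 and 1.28 in this order. The intervals overlap for all 4 genes. Cells with Foxd1 also had more genes found, a median of 5428 against 4878, and hold both shallow cells. The part of the number of genes found in this result was not tested. Without cells 3 and 7 the ratios were 1.60 for Hoxd3, 1.47 for Hoxa3, 1.30 for Hoxc4 and 1.34 for Hoxa4.

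The excess with Foxd1 depended on the threshold. At 0.1 RPKM none of the 10 genes had a high ratio. At 5 RPKM 1 of the 8 that could be compared did. This was Hoxa5 (ratio 1.27), which had no high ratio at 1 RPKM, while Hoxa3 stood at 0.972 and Hoxc4 at 1.04. Hoxd3 and Hoxa4 were in too few cells to be compared there. At 10 RPKM 1 of 7 did, Hoxc4, in 3 cells against 1.84. Among the 18 other Hox genes found in 5 to 44 cells, 2 had a high ratio with Foxd1 (Hoxd9 and Hoxc11) and 3 a low one (Hoxb1, Hoxb2 and Hoxa7). Hoxa3 was found in 7 of the 9 cells that had both Six2 and Foxd1, 6 of the 15 with Foxd1 without Six2 and 4 of the 18 with Six2 without Foxd1. Its highest level in each of these classes was 63.7, 46.5 and 57.7 RPKM, so its high cells were not of 1 class.

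With Six2, no gene had a high ratio (background 13.4%), and 1 had a low one (background 13%). This was Hoxc4, at 11 of 27 cells with Six2 (40.7%, interval 22.4 to 61.2%) and 14 of 22 without (63.6%, interval 40.7 to 82.8%). The ratios of Hoxa4, Hoxc5, Hoxa3, Hoxb3 and Hoxb5 lay above 1, between 1.10 and 1.13. The most often found of these, Hoxb3, was in 22 cells with Six2 (81.5%, interval 61.9 to 93.7%) and 14 without (63.6%, interval 40.7 to 82.8%). With Crym at 10 RPKM or more, met by 30 cells, no gene had a high or a low ratio (backgrounds 10.1% and 10.8%). Crym encodes a thyroid hormone binding protein and its regulatory sequences drive the EGFP. Of the 18 other Hox genes, 7 had a high ratio with Six2 and 7 with Crym, while none of the 10 genes of groups 3 to 5 did at this threshold. At 10 RPKM 3 of 7 genes of the set had a high ratio with Six2, itself taken at 10 RPKM, and 2 of 7 with Crym. Those with Six2 rested on few cells: Hoxa3 in 4 against 2.71, Hoxb3 in 7 against 5.43 and Hoxd4 in 3 against 2.33. Neither the share over all genes nor the other Hox genes were computed at 10 RPKM, so these counts have no background.

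**Figure D5:**
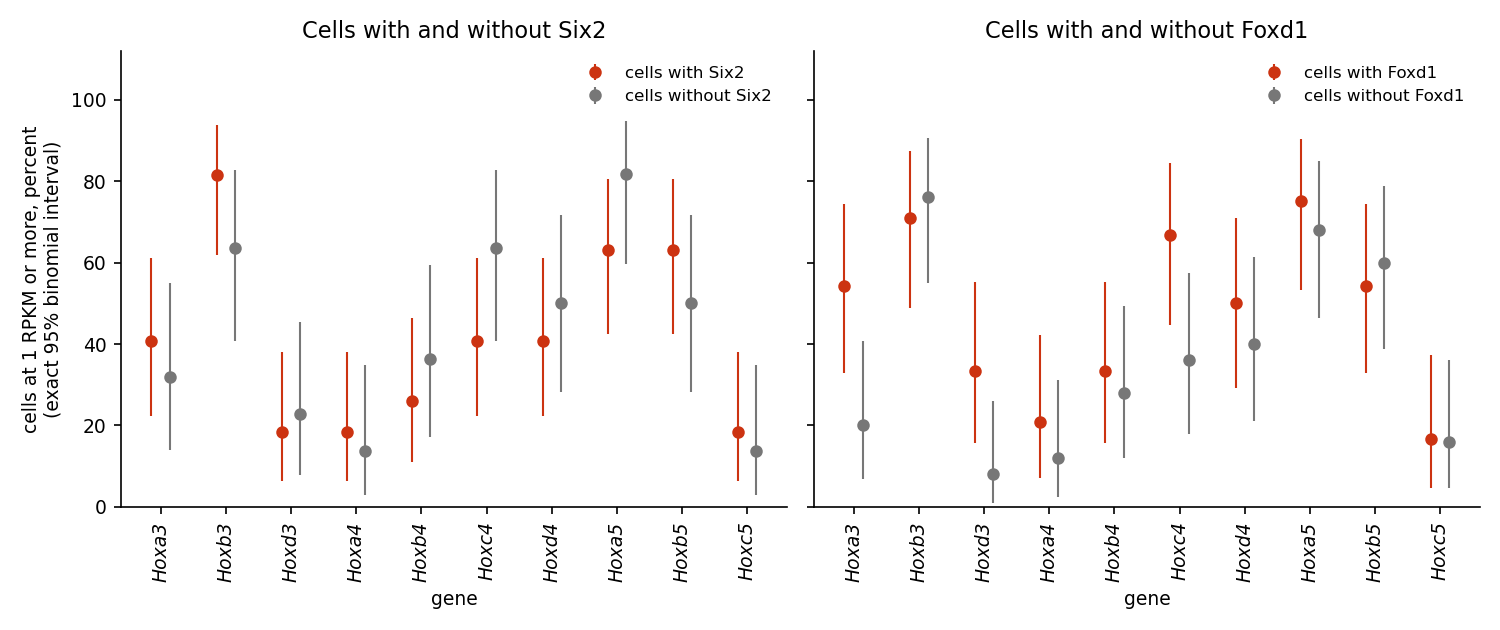
Percent of cells in which each Hox gene was found at 1 RPKM or more among cells with (red) and without (grey) Six2 on the left and Foxd1 on the right, with exact 95% binomial intervals as bars. The intervals overlap for every gene; the widest gaps are those of Hoxa3, Hoxd3 and Hoxc4 with Foxd1.

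Over the whole marker lists the relation was as weak. The mean log2(RPKM + 1) of 15 nephron progenitor genes and of 17 stromal genes ran against each other (rho -0.60 over 49 cells), but the summed level of the 10 Hox genes followed neither (rho 0.015 and 0.071). Of the single genes, Hoxc4 alone reached 0.3 with the stromal list (rho 0.353; 7.69% of all genes did), and none reached it with the progenitor list (7.81%). Hoxc4 also correlated with the number of genes found per cell (rho 0.281), and its correlation with the stromal list given that number was 0.298. Among stromal genes, Hoxc4 was found with Aldh1a2 in 20 cells against 15.8 (rho 0.434) and with the collagen gene Col1a1 in 20 against 15.8 (rho 0.375). Of the 150 pairs of a Hox gene of the set with a stromal gene found in 5 to 44 cells, 6 had a correlation of 0.3 or more and 4 of -0.3 or less, and of the 120 pairs with a progenitor gene 1 and 2 did, where 3.84% of pairs with any gene reached 0.3 in either direction. The lowest were Hoxb5 with Pdgfrb (rho -0.40), though Hoxb5 had a correlation of only -0.06 with the whole stromal list, and Hoxd4 with the progenitor gene Cited1 (rho -0.38). The highest with a progenitor gene was Hoxb3 with Itga8 (rho 0.348).

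Retinoic acid, made in the stroma by Aldh1a2, sets Hox boundaries in other tissues, so the genes of its pathway were compared with the set. Aldh1a2 was found in 31 cells, the binding protein gene Crabp2 in 49, and the receptor genes Rarb, Rara and Rarg in 24, 13 and 10. Of the 100 pairs of a Hox gene of the set with 1 of the 10 pathway genes found in 5 to 44 cells, 66 shared more cells than independent detection gives, 21 had a high ratio and 15 a low one, beside backgrounds of 54.1%, 15.1% and 16.5%. Aldh1a2 correlated with Hoxc4 (rho 0.434) and ran against Hoxb4 (rho -0.33), a gene of the same paralog group. Rarb was found with Hoxa4 in 7 of its 8 cells, where 3.92 were expected (rho 0.322), and Rara with Hoxb5 in 10 cells against 7.43 (rho 0.358).

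The genes of the partner proteins Meis1 and Meis2 were found in 49 and 48 cells, with medians of 108 and 55.2 RPKM, so cells with a Hox gene of the set had them in nearly every case. Of the 60 pairs with the 6 rarer partner genes (Meis3, Pbx2, Pbx3, Pbx4, Pknox1 and Pknox2), 35 (58.3%) shared more cells than independent detection gives (background 54.1%), 17 (28.3%) had a high ratio (background 15.1%) and 11 (18.3%) a low one (background 16.5%). Pbx2 and Hoxb5 shared 16 cells against 12.6 (rho 0.315), and Pbx3 and Hoxa5 shared 13 of the 14 cells of Pbx3 against 10. Of regulators known to act on Hox genes, the Polycomb genes Ezh2, Suz12 and Rnf2 were found in 45 cells each. Of the 60 pairs with the 6 regulators found in 5 to 44 cells, 31 shared more cells than independent detection gives and 6 (10%) had a high ratio, below the 15.1% of all pairs. Cdx1, whose product turns on Hox genes in the trunk, was found in 1 cell, and Cdx2 and Cdx4 were not analysed here.

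Genes most like each Hox gene over the 49 cells were sought by Spearman correlation among 8421 genes found in 10 or more cells, for the 8 members found that often. The highest was Ctcfl with Hoxc4 (rho 0.656), followed by Cybrd1 (rho 0.637). For Hoxd3 it was Zfp605 (rho 0.629), for Hoxb5 Itgb3bp (rho 0.614), for Hoxb4 Gm13154 (rho 0.573), for Hoxa5 Asxl3 (rho 0.540), for Hoxa3 Smad4 (rho 0.536), for Hoxb3 Rpl6 (rho 0.523) and for Hoxd4 Taf3 (rho 0.485). Each is the highest of 8421 correlations and is a description of these cells. Another Hox gene was never the most like, but only 25 Hox genes were among those compared, so this says little. The nearest stood at rank 34 for Hoxd4 (Hoxc4), rank 42 for Hoxb5 (Hoxb9) and rank 56 for Hoxb3 (Hoxb9). It stood at rank 128 for Hoxa3, 142 for Hoxc4, 282 for Hoxb4, 383 for Hoxa5 and 561 for Hoxd3. Whether these ranks are nearer the top than those of 25 other genes was not tested.

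A few of the 49 cells carried markers of other cell types. Cell 25 had 11 of 12 ureteric bud markers at 1 RPKM or more, and cell 27 had 8 of 8 endothelial markers analysed. Cell 25 also had 12 of 17 stromal genes, where the median cell had 9, and Foxd1 at 51.7 RPKM, so it counts among the cells with Foxd1. Cell 27 had 2 of the stromal genes. Cell 12 had 3 of the ureteric bud markers, the other cells had 2 or fewer, and no cell but cell 27 had more than 1 endothelial marker. Cell 25 had Hoxb4 at 1.17, Hoxc4 at 1.39, Hoxa5 at 13.4 and Hoxb5 at 5.82 RPKM. Cell 27 had Hoxb4 at 1.72 and Hoxa5 at 1.07 RPKM, and the lowest sum of the set. Of the neural crest and neuron list 3 of 8 genes were analysed, and 1 cell had all 3. This was the shallow cell 7, in which a single read can pass 1 RPKM. Of the muscle and somite list 1 of 5 genes was analysed, Des, and 18 cells lacked it.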

How the data were processed

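Per the file headers, the deposited table holds RPKM for each gene and cell. The submitters' processing notes name TopHat 1.4.1, DESeq and mm9 without a role; no source at hand states the read counter or its annotation. Every gene of the table has more than 3 RPKM in at least 1 cell, and all 13093 deposited counts of such cells matched a recount. Whether starts count from 0 or 1 is not given.

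Cells were matched to columns by cell number, and none was filtered. A gene was found at 1 RPKM or more. Relative depth came from the densest ratio (window of 2e-05 in the natural log) of values between each cell and cell 1, both below 8 RPKM. Reads per cell came from 218 single-transcript coding genes (GENCODE vM21 lengths), and in all 49 cells the commonest low read number of 963 such genes was 1. Reads per gene were called whole within 0.02. Both steps were tested on simulated data of whole reads with 1 length per gene. That test does not cover genes whose values are fractions of a read. Pairs were compared with independent detection, the background being genes found in 5 to 44 cells. The members, lists and rules were chosen with earlier results of these data known; 3 genes most like each member were sought. Python 3.11.15, SciPy 1.17.1 and pandas 2.3.3 were used. All columns of cells were used. Some list genes and homeobox sequences are not reported here.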

Additional observations from a re-analysis of the deposited data

How the results depend on the processing

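Of 101 values computed under other settings, 75 kept within 1.5 times their count, within 0.1 of their correlation, within the interval of their share or within 1 SD of their median level, and 26 moved. The median level of Hoxb5 without cells 3 and 7, 3.52 against 1.88 RPKM, is within 1 SD over cells. For every gene of the set that SD exceeded the median, so even a median of 0 would have been counted as kept. The median levels counted among the 75 therefore say little about stability. No paired analysis was possible because all cells form 1 group. Cells with at least 1 gene fell to 98.0% at 5 RPKM and 79.6% at 10 RPKM; the median number per cell was 2 at 5 and at 10 RPKM. At 5 RPKM, pairs above independent detection were 2 of 5 in the same cluster, 2 of 7 in the same paralog group and 8 of 16 others; at 10 RPKM they were 3 of 3, 1 of 5 and 7 of 13. Without the overlapping pairs, a choice made after the data were seen, the same-cluster count was 3 of 5 and the median correlation -0.0845. With Foxd1, high ratios (at least 25% more cells than expected) numbered 0 at 0.1 RPKM, 1 at 5 RPKM and 1 at 10 RPKM, and low ratios (at least 20% fewer) 1 at 0.1 RPKM and 1 at 10 RPKM. With Six2, high ratios numbered 1 at 5 RPKM and 3 at 10 RPKM, and low ratios 0 at 0.1 RPKM and 2 at 5 RPKM. With Crym, high ratios numbered 1 at 5 RPKM and 2 at 10 RPKM, and low ratios 1 at 5 RPKM, 1 at 10 RPKM, 1 without cells 3 and 7 and 1 without cells 25 and 27. The cause was not tested. Fewer genes are compared at the higher thresholds. The threshold was moved for Six2 and Foxd1 as well, while Crym stayed at 10 RPKM. The share over all genes was not computed at the other thresholds. Depth limits low genes: 1 RPKM is a few reads of Hoxb4 or Hoxa5, and in cells 3 and 7 less than 1.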
